A study of Rattus norvegicus with 6 samples.

Results

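Dbp and 9 further genes of the circadian clock whose transcripts reach their peak in liver at a similar phase of the day were followed in rat liver with and without CCl4-induced fibrosis. The 10 members were Dbp, Tef, Hlf, Per1, Per2, Per3, Nr1d1, Nr1d2, Ciart and Bhlhe41. They were chosen by name, as the rows of the expression table that carry these symbols, and each symbol had 1 row among the 19616 genes of the table.

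RNA was sequenced from the livers of 6 male SD (Sprague-Dawley) rats, with 1 library per rat and with ribosomal RNA removed. The 3 rats of the fibrosis group (FL2, FL5 and FL12) had been injected intraperitoneally with CCl4, a solvent that injures hepatocytes, mixed 1:1 with olive oil, at 2 mL/kg and 2 injections a week over 5 weeks. The 3 rats of the control group (CL5, CL6 and CL7) had received an equal volume of olive oil. The hour of death was not given in the sources used here, for any rat, so levels could not be set against the time of day. Whether that hour differed between the groups is unknown, and an effect of such a difference could not be told apart from that of CCl4. Expression is given as FPKM, a fragment count scaled by transcript length and by the mapped fragments of a library. Values of single rats are listed in the order CL5, CL6 and CL7 and in the order FL2, FL5 and FL12.

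The clock of a liver cell is a feedback loop of transcription that runs with a period of about a day. The activators CLOCK (or its relative NPAS2) and BMAL1, the product of Arntl, bind E-boxes and drive genes whose products (PER, CRY, REV-ERB, DEC2 and CIART) act back on the activators, while REV-ERB represses Arntl itself. The PAR bZIP factors DBP, TEF and HLF pass the rhythm on through D-boxes to genes of bile acid, drug and heme metabolism, and NFIL3 represses through the same sequences in the opposite phase.

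Groups were compared with limma on log2(FPKM + 0.1), over the 14864 genes that averaged 0.1 FPKM or more across the 6 rats. A gene was called when its limma adjusted p was under 0.05 and its change at least 2-fold. All 10 members passed the filter. Fold changes are on the log2(FPKM + 0.1) scale, which understates the change of genes with low FPKM. Ciart and Bhlhe41 would have missed the filter in the CL group alone, so their passing rests on the FL group.

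The members were chosen with earlier results of these data known, so their counts describe a selected list. Of the 10 members, 8 were called higher in the FL group, against 9.29% of all genes tested. None was called lower, a call made for 0.935% of the genes tested. In 9 of the 10 each FL rat lay above each CL rat, which held for 35.7% of the genes tested. Without CL7 the share of all genes called higher was 4.95% and without FL5 it was 5.06%, and the members called numbered 8 and 7. With a pseudocount of 1 it was 3.11%, with 5 members called, and with quantile normalization 3.05%, with 7. The 2 members not called were Tef, which passed the adjusted p but not the 2-fold limit, and Per1, whose groups overlapped. The median log2 fold change of the 10 members was 2.16, against 0.29 for all genes tested, and relative to that median of all genes it was 1.88. Without Ciart and Bhlhe41, 6 of the 8 other members were called higher, in 7 each FL rat lay above each CL rat, and the median was 1.68, or 1.39 relative to all genes. The summed level of the members was 21.3, 17.9 and 20.4 FPKM in the CL rats, against 88.8, 98.2 and 102.5 in the FL rats. In whole liver, a change in the number of cells of a type and a change in RNA per cell cannot be told apart.

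**Figure D1:**
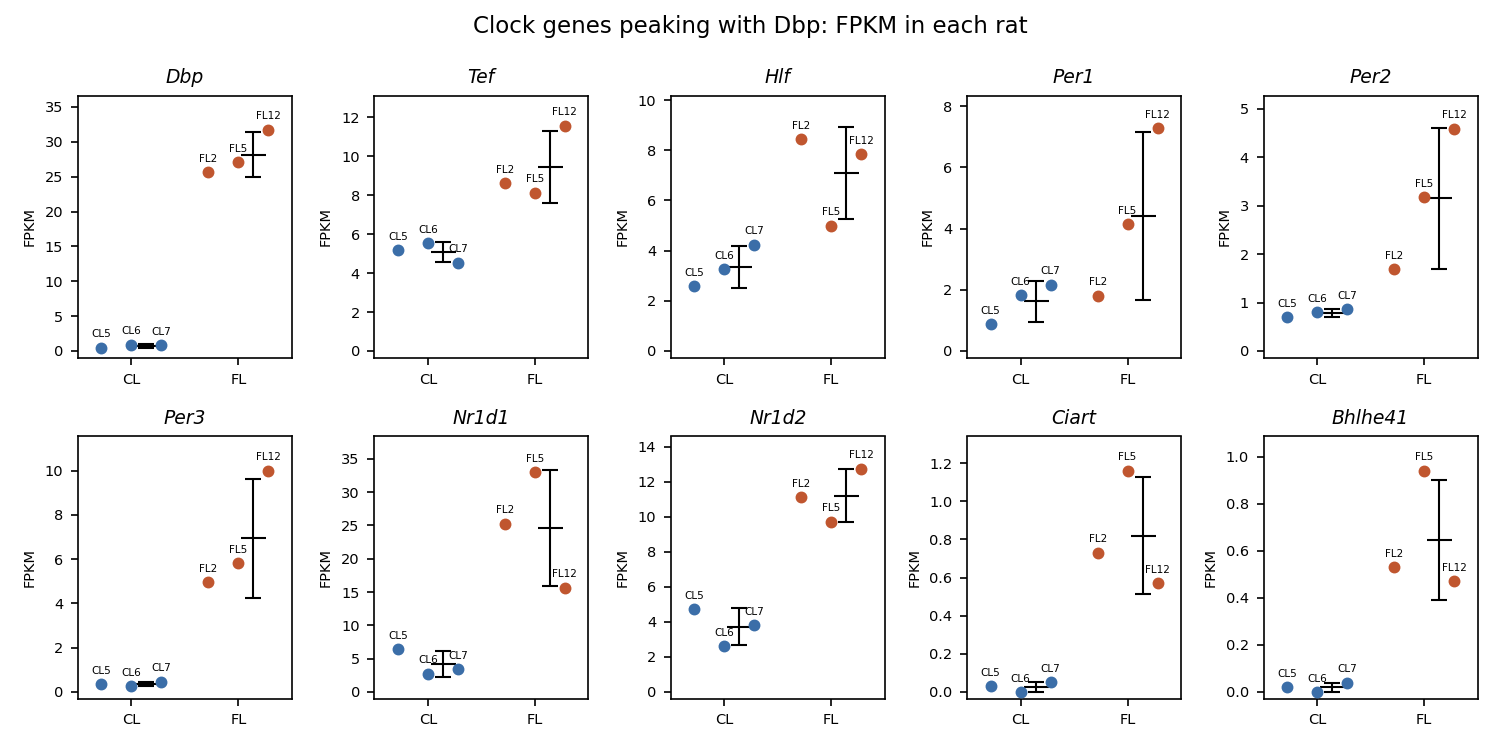
FPKM of the 10 members in each CL rat (blue) and FL rat (orange), on a linear axis from 0, with the group mean and SD (n = 3) as bars to the right of the middle point. Dbp lay between 0.46 and 0.91 FPKM in the CL rats and between 25.6 and 31.8 FPKM in the FL rats, and Per1 is the member whose groups overlap.

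The PAR bZIP factors, the output regulators of the clock, were examined first. Dbp (ENSRNOG00000021027, chromosome 1), named for its binding to the D site of the albumin promoter, read 0.46, 0.91 and 0.81 FPKM in the CL rats, against 25.6, 27.1 and 31.8 in the FL rats. The lowest FL rat stood 28.1-fold above the highest CL rat, and the spread within either group was small beside that gap. The log2 fold change was 5.13 (SE 0.23, limma adjusted p = 1.26e-04, higher in 3 of 3 FL rats), or 4.85 relative to the median of all genes. Among all genes tested, Dbp took place 4 by log2 fold change and place 2 by p. Its adjusted p lay between 2.52e-05 and 0.00229 over the 14 alternatives of scaling, filter, pseudocount, prior and left-out rat.

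Tef (ENSRNOG00000019383, chromosome 7), the thyrotroph embryonic factor, read 5.19, 5.53 and 4.54 FPKM in the CL rats, against 8.62, 8.14 and 11.6 in the FL rats. The groups did not overlap, but the change was 1.82-fold (log2 fold change 0.87, SE 0.16, limma adjusted p = 0.0123, above 0.05 in 2 of 14 alternatives) and fell short of the 2-fold limit. Hlf (ENSRNOG00000002456, chromosome 10), the hepatic leukemia factor, read 2.58, 3.25 and 4.24 FPKM in the CL rats, against 8.45, 5 and 7.84 in the FL rats. FL5 was only 1.18-fold above CL7 for Hlf, the narrowest gap among the 9 members without overlap. Its log2 fold change of 1.05 (SE 0.25, limma adjusted p = 0.0249) was near both limits. The adjusted p of Hlf rose above 0.05 in 7 of 14 alternatives, among them median scaling (0.0845), quantile normalization (0.135), limma without trend (0.0511) and the fits without CL5 (0.076), CL6 (0.0697), FL2 (0.0517) or FL12 (0.0765).

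The share of Dbp in the summed FPKM of the 3 PAR bZIP genes was 5.59%, 9.39% and 8.45% in CL5, CL6 and CL7. In FL2, FL5 and FL12 it was 60.0%, 67.3% and 62.0%. The transcripts of the family thus differed between the groups in make-up as well as in sum, which was 8.23, 9.69 and 9.59 FPKM in the CL rats, against 42.7, 40.2 and 51.2 in the FL rats.

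The PER proteins form complexes with CRY that inhibit CLOCK and BMAL1. Per1 (ENSRNOG00000007387, chromosome 10) read 0.88, 1.82 and 2.17 FPKM in the CL rats, against 1.80, 4.14 and 7.27 in the FL rats. FL2 lay below both CL6 and CL7, and the log2 fold change of 1.27 (SE 0.50, limma adjusted p = 0.113) did not pass. Per1 was called only without FL2, with a log2 fold change of 1.78 and an adjusted p of 0.0243, where the 14 alternatives spanned 0.0243 to 0.295.

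Per2 (ENSRNOG00000020254, chromosome 9) read 0.70, 0.80 and 0.86 FPKM in the CL rats, against 1.69, 3.17 and 4.59 in the FL rats. The CL rats were close together and the FL rats spread widely, with the lowest of them 1.97-fold above the highest CL rat. The log2 fold change was 1.77 (SE 0.33, limma adjusted p = 0.0122), and the call was lost without FL5, where the adjusted p was 0.0501 in a range from 0.00294 to 0.0501. Per3 (ENSRNOG00000018413, chromosome 5) read 0.35, 0.27 and 0.46 FPKM in the CL rats, against 4.97, 5.83 and 10.01 in the FL rats. Its lowest FL rat was 10.8-fold above its highest CL rat. At a log2 fold change of 3.89 (SE 0.29, limma adjusted p = 9.07e-04) Per3 took place 16 among all genes tested, and it was called in each alternative.

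Within the FL group all 3 Per genes and Dbp were highest in FL12, intermediate in FL5 and lowest in FL2. The summed level of Per1, Per2 and Per3 was 8.46, 13.1 and 21.9 FPKM in the FL rats, against 1.93, 2.89 and 3.49 FPKM in CL5, CL6 and CL7.

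Nr1d1 and Nr1d2 encode REV-ERBα and REV-ERBβ, the heme-binding nuclear receptors that repress Arntl. Nr1d1 (ENSRNOG00000009329, chromosome 10) read 6.38, 2.72 and 3.45 FPKM in the CL rats, against 25.3, 33.0 and 15.7 in the FL rats. Every FL rat was at least 2.46-fold above the highest CL rat, and FL12, which had the most Per mRNA, had the least Nr1d1 of the FL rats. The log2 fold change was 2.56 (SE 0.35, limma adjusted p = 0.00491). Nr1d1 overlaps Thra, the thyroid hormone receptor alpha gene, in the RefSeq annotation, and whether reads were counted by strand for these FPKM was not given in the sources used here, so reads of a stretch they share cannot be told apart. Hlf, Per2, Npas2, Clock and Cry1 also overlap loci of that annotation, which have no row in the table. Thra itself read 2.25, 1.99 and 2.41 FPKM in the CL rats, against 2.39, 3.32 and 2.36 in the FL rats, and its part in the level of Nr1d1 was not tested.

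Nr1d2 (ENSRNOG00000046912, chromosome 15) read 4.73, 2.62 and 3.82 FPKM in the CL rats, against 11.1, 9.71 and 12.7 in the FL rats. Like Nr1d1 it was highest in CL5 and lowest in CL6 among the CL rats, whereas Dbp, Hlf, Per1 and Per2 were lowest in CL5. Its log2 fold change was 1.59 (SE 0.22, limma adjusted p = 0.0049), and both Nr1d genes were called in each alternative.

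Ciart and Bhlhe41 encode repressors of transcription driven by CLOCK and BMAL1, the latter being DEC2, which binds E-boxes itself. Ciart (ENSRNOG00000042717, chromosome 2) was listed at 0.03, 0 and 0.05 FPKM in the CL rats, against 0.73, 1.16 and 0.57 in the FL rats. Bhlhe41 (ENSRNOG00000048961, chromosome 4) was listed at 0.02, 0 and 0.04 FPKM in the CL rats, against 0.53, 0.94 and 0.47 in the FL rats. Both were near 0 in each CL rat, and both had the same order in the FL group, FL5 above FL2 above FL12, which was also the order of Nr1d1.

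The log2 fold changes were 2.83 for Ciart (SE 0.38, limma adjusted p = 0.00482) and 2.60 for Bhlhe41 (SE 0.39, limma adjusted p = 0.00603). Their size depends on the pseudocount, since the CL values lay below it. Over the alternatives the log2 fold change ran from 0.81 to 4.78 for Ciart and from 0.68 to 4.67 for Bhlhe41, and with a pseudocount of 1 neither reached 2-fold, though the adjusted p stayed under 0.05. Values this low rest on few reads.

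In the CL group the members ranked by mean FPKM as Tef, Nr1d1, Nr1d2, Hlf, Per1, Per2, Dbp, Per3, Ciart and Bhlhe41. Tef at 5.09 ± 0.503 FPKM, Nr1d1 at 4.18 ± 1.94 FPKM, Nr1d2 at 3.72 ± 1.06 FPKM and Hlf at 3.36 ± 0.835 FPKM (SD, n = 3) lay within the spread of their neighbours in this order. Dbp, at 0.727 ± 0.236 FPKM, did not stand apart from Per2 at 0.787 ± 0.0808 FPKM. In the FL group Dbp moved from place 7 to place 1, at 28.2 ± 3.20 FPKM, followed by Nr1d1 at 24.6 ± 8.67 FPKM, from which it did not differ beyond the spread. Next came Nr1d2, Tef, Hlf, Per3, Per1 and Per2, between 11.2 and 3.15 FPKM. Each FL rat had more Nr1d1 than any FL rat had Nr1d2, whereas Nr1d2 at 11.2 ± 1.52 FPKM and Tef at 9.45 ± 1.86 FPKM were within their spread. Within each FL rat, however, Nr1d2 was above Tef. Ciart and Bhlhe41 were last in both groups and lay within each other's spread, at 0.82 ± 0.305 FPKM and 0.647 ± 0.256 FPKM in the FL group. Within each FL rat Ciart was above Bhlhe41.

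FL12 was the highest FL rat for 6 of the 10 members, FL5 for 3 and FL2 for 1. The lowest FL rat was FL2 for 4 members, and FL5 and FL12 for 3 each. The mean over the members of the centred log2 level (each gene's log2 level minus its mean over the 6 rats) was -1.23, -1.29 and -1.01 in the CL rats, against 0.94, 1.25 and 1.35 in the FL rats. The rats of a group thus lay closer to each other than to any rat of the other group on this mean, while single members ordered the rats of a group differently.

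The genes of the opposite phase reported here were Arntl, Npas2, Clock, Nfil3 and Cry1. They too were chosen with earlier results of these data known, and their counts describe a selected list. In all 5 each FL rat lay below each CL rat, which held for 4.78% of the genes tested, and 4 of the 5 were called lower, against 0.935% of the genes tested. Without CL6 and without CL7 that share of all genes was 0.542%, and 3 of the 5 were called in either fit. With a pseudocount of 1 it was 0.484%, with 2 of the 5 called, and with quantile normalization it was 1.55%, with 4 called. Their median log2 fold change was -1.52, or -1.81 relative to the median of all genes.

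Arntl, which encodes BMAL1, read 12.4, 11.6 and 10.7 FPKM in the CL rats, against 3.71, 3.82 and 2.88 in the FL rats (log2 fold change -1.72, SE 0.15, limma adjusted p = 0.00164). Npas2, the relative of Clock, read 5.65, 6.09 and 5.61 FPKM in the CL rats, against 1.44, 1.99 and 0.90 in the FL rats (log2 fold change -1.99, SE 0.26, limma adjusted p = 0.00434). Cry1, the partner of the PER proteins that peaks late, read 1.90, 2.83 and 2.68 FPKM against 0.77, 0.89 and 0.70 FPKM (log2 fold change -1.52, SE 0.21, limma adjusted p = 0.00518). These 3 stayed under an adjusted p of 0.05 in each alternative, and Cry1 fell below 2-fold with a pseudocount of 1 (log2 fold change -0.95).

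Nfil3, which competes with the PAR bZIP factors for D-boxes, read 22.1, 18.1 and 15.9 FPKM in the CL rats, against 13.3, 8.02 and 7.24 in the FL rats. Its log2 fold change of -1.01 (SE 0.24, limma adjusted p = 0.0249) was barely past the 2-fold limit, and its adjusted p was above 0.05 in 6 of 14 alternatives (up to 0.0877 without FL5). Clock read 8.01, 8.25 and 9.11 FPKM against 6, 7.09 and 6.03 FPKM, and its log2 fold change of -0.40 (SE 0.12, limma adjusted p = 0.0573) did not pass. The adjusted p of Clock was under 0.05 in 3 of 14 alternatives, each short of 2-fold. These were median scaling (log2 fold change -0.63), quantile normalization (-0.66) and a mean of at least 1 FPKM (-0.40).

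**Figure D2:**
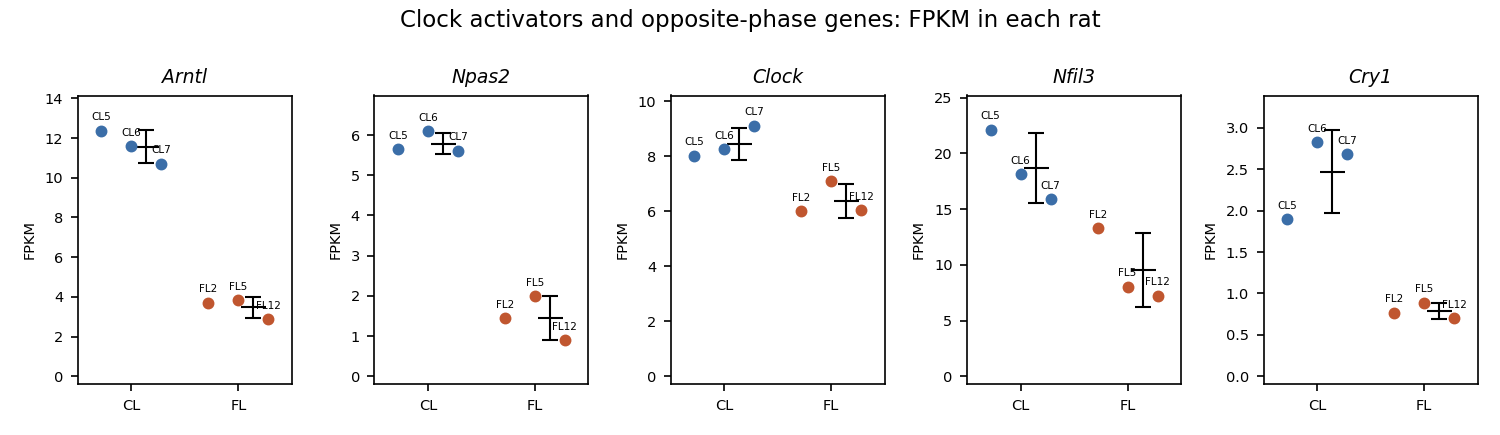
FPKM of the 5 activators and opposite-phase genes in each CL rat (blue) and FL rat (orange), on a linear axis from 0, with the group mean and SD (n = 3) as bars to the right of the middle point. Each FL rat lies below each CL rat in all 5 panels, with the narrowest gap for Clock (7.09 FPKM in FL5, 8.01 FPKM in CL5).

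Ratios of 2 genes within a rat do not depend on the scaling between rats. The FPKM of Dbp divided by that of Arntl was 0.0372, 0.0784 and 0.0756 in the CL rats, against 6.90, 7.09 and 11.02 in the FL rats. The ratio of Nr1d1 to Arntl was 0.516, 0.234 and 0.322 in the CL rats and 6.81, 8.63 and 5.44 in the FL rats. The ratio of Dbp to Nfil3, the activator and the repressor at D-boxes, was 0.0208, 0.0502 and 0.051 in the CL rats and 1.93, 3.38 and 4.39 in the FL rats. Arntl exceeded Dbp in each CL rat and Dbp exceeded Arntl in each FL rat.

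Of 11 accessory clock genes, 3 were called higher and 0 lower, against 9.29% and 0.935% of all genes tested. Cry2, which encodes the other cryptochrome, read 3.59, 3.06 and 2.73 FPKM in the CL rats, against 5.84, 7.41 and 7.37 in the FL rats (log2 fold change 1.11, SE 0.16, limma adjusted p = 0.00537), so that the 2 cryptochrome genes changed in opposite directions. Bhlhe40, the gene of DEC1 and relative of Bhlhe41, had a log2 fold change of 1.07 (SE 0.19, limma adjusted p = 0.0106), and Csnk1e, whose kinase phosphorylates PER, one of 1.06 (SE 0.23, limma adjusted p = 0.0184). Rora, named after its values were seen, read 12.8, 14.8 and 14.1 FPKM against 7.82, 9.97 and 9.87 FPKM and was below the 2-fold limit (log2 fold change -0.59, SE 0.13, limma adjusted p = 0.0223, above 0.05 in 4 of 14 alternatives). The calls of Cry2, Bhlhe40 and Csnk1e were lost with median scaling and with quantile normalization, where the log2 fold changes lay between 0.72 and 0.89, and with a pseudocount of 1 (0.93, 0.996 and 0.86). The call of Bhlhe40 was also lost without CL5 (log2 fold change 0.86) or FL2 (0.98), and that of Csnk1e without CL5 (adjusted p = 0.0633), CL7 (0.0584) or FL5 (0.0684) and, by its log2 fold change of 0.87, without FL12. The median log2 fold change of the 11 was 0.24, close to that of all genes.

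Among 8 reported target genes of the PAR bZIP factors in liver, 1 was called higher and 0 lower, against 9.29% and 0.935% of all genes tested. Cyp7a1, the rate-limiting enzyme of bile acid synthesis, read 51.1, 27.0 and 29.4 FPKM in the CL rats, against 96.3, 89.2 and 201.6 in the FL rats (log2 fold change 1.80, SE 0.35, limma adjusted p = 0.0134), and the call was lost without CL7 (adjusted p = 0.0573, in a range from 0.0109 to 0.0573). Por, the electron donor of the cytochromes P450, had a log2 fold change of 0.85 (SE 0.19, limma adjusted p = 0.0221, above 0.05 in 6 of 14 alternatives) and Nr1i3, the receptor CAR, one of 0.55 (SE 0.25, limma adjusted p = 0.163). The median of the 8 was 0.20, below that of all genes, with 5 log2 fold changes positive and 3 negative. In 3 of the 8 each FL rat lay above each CL rat, against 35.7% of the genes tested. In 1, Alb, each FL rat lay below each CL rat, against 4.78% (log2 fold change -0.38, SE 0.98, limma adjusted p = 0.804).

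Of 8 clock-controlled output genes tested, 2 were called higher, against 9.29% of all genes tested, and their median log2 fold change was 0.56, against 0.29 for all genes. Usp2, a deubiquitinase gene with a strong daily rhythm, read 0.42, 0.55 and 0.74 FPKM in the CL rats, against 2.08, 2.32 and 4.29 in the FL rats (log2 fold change 2.12, SE 0.31, limma adjusted p = 0.00592). Rbm3, a cold-inducible RNA-binding protein gene that follows body temperature, read 3.40, 3.50 and 3.52 FPKM against 6.81, 9.09 and 8.42 FPKM (log2 fold change 1.19, SE 0.14, limma adjusted p = 0.00368), and it fell below 2-fold with median scaling (0.97) and quantile normalization (0.89). Wee1, a kinase gene of the cell cycle, had a log2 fold change of 1.01 (SE 0.42, limma adjusted p = 0.129). It was called only without FL2 (log2 fold change 1.39, adjusted p = 0.0403). Lpin1 and Gys2, named after their values were seen, passed the adjusted p below the 2-fold limit, at log2 fold changes of -0.83 (limma adjusted p = 0.00414) and 0.72 (limma adjusted p = 0.017). With median scaling Lpin1 passed the 2-fold limit (log2 fold change -1.05, adjusted p = 0.00415) and Gys2 lost its adjusted p (0.0788), which was above 0.05 in 4 of 14 alternatives. Elovl3 had no row in the table.

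Glucocorticoids act on Per1 and on the hepatic clock, and 10 rows of 9 glucocorticoid-responsive genes were therefore set beside the members, with 0 called higher and 1 lower, against 9.29% and 0.935% of all genes tested. Zbtb16 read 16.4, 15.7 and 16.1 FPKM in the CL rats, against 5.29, 7.06 and 9.14 in the FL rats (log2 fold change -1.19, SE 0.19, limma adjusted p = 0.00702), and without FL2 its log2 fold change was -0.99, short of 2-fold. Mt2A, a metallothionein gene, varied widely, at 1.05, 3.06 and 5.73 FPKM against 12.9, 14.5 and 2.43 FPKM (limma adjusted p = 0.197). Fkbp5 had a log2 fold change of 0.81 (SE 0.17, limma adjusted p = 0.0188, above 0.05 in 5 of 14 alternatives), and the median over the rows was 0.01. At an unadjusted p under 0.05, 3 of the 10 rows passed, against 35.5% of all genes tested. Mt1a had no row in the table.

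**Figure D3:**
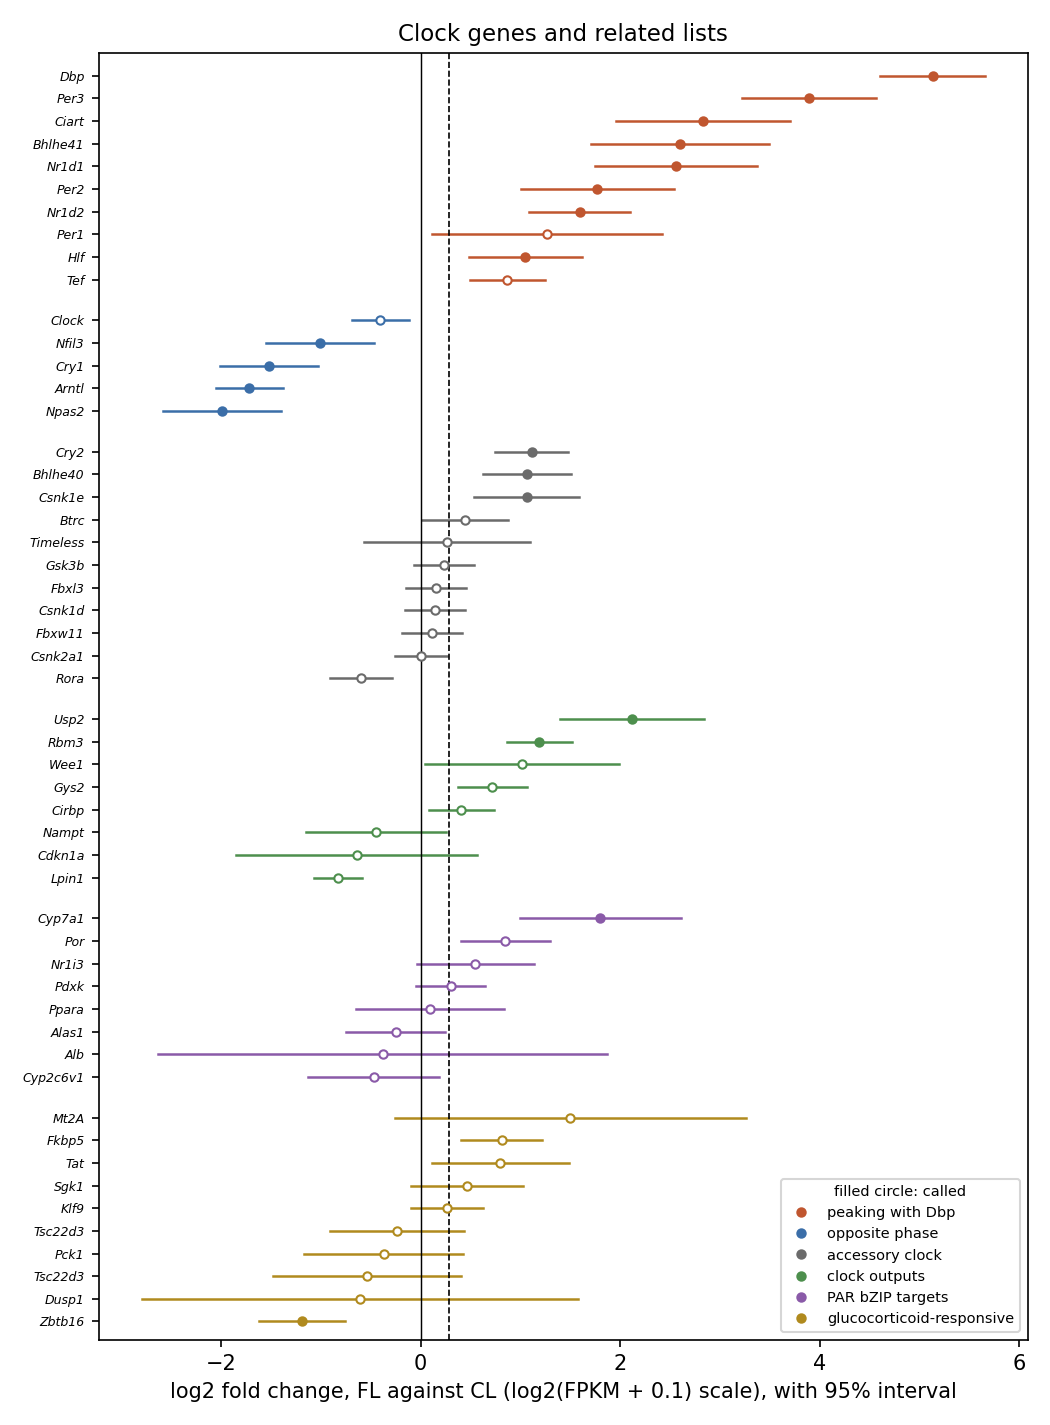
Log2 fold change of the FL against the CL group on the log2(FPKM + 0.1) scale, with the 95% interval of limma, for the genes of 6 lists. Filled circles were called, the solid line marks 0 and the dashed line the median of all genes tested (0.29). The members peaking with Dbp lie to the right of the dashed line and the opposite-phase genes to the left of the solid line.

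Markers of cell types were read beside the members, and the most abundant gene of each list is that with the highest mean over the 6 rats. The tissue was liver by its hepatocyte markers, which summed to 47108, 44471 and 45115 FPKM in the CL rats, against 34797, 37623 and 36380 in the FL rats. Alb was the most abundant and limma called 0 of the 10, where 9.29% of all genes tested were called higher and 0.935% lower. An unadjusted p under 0.05 was reached by 2, both with a positive log2 fold change, where 35.5% of all genes tested reached it. The list went both ways, with 4 log2 fold changes positive and 6 negative. In 5 of the 10, Alb among them, each FL rat lay below each CL rat, against 4.78% of the genes tested. In 1 each FL rat lay above each CL rat, against 35.7%. The SE of Alb was 0.98 with the mean-dependent prior and 0.12 without trend (adjusted p = 0.0789), so the lack of a call does not show equal levels. Stellate cell and myofibroblast markers summed to 88.3, 94.2 and 85.4 FPKM in the CL rats, against 206, 546.4 and 494 in the FL rats. Col3a1 was the most abundant, and 4 of 9 tested were called higher, against 9.29% of all genes tested. Macrophage markers summed to 146.8, 136.2 and 142.7 FPKM against 334.6, 324.2 and 202.1 FPKM, with Clec4f the most abundant (though not in the FL group alone). Of the 10, 5 were called higher, against 9.29% of all genes tested.

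Of 7 cholangiocyte markers, led by Spp1 (though not in the CL group alone), 1 was called higher, against 9.29% of all genes tested. The 7 summed to 10.3, 16 and 10.9 FPKM in the CL rats, against 19.1, 75.0 and 48.3 in the FL rats. The difference was mostly that of Spp1, since the other 6 summed to 9.94, 13.2 and 10.2 FPKM against 11.7, 14.4 and 17.2 FPKM, and 2 of them had a negative log2 fold change. Cycling cell markers, led by Mki67, summed to 2.50, 4.73 and 3.05 FPKM against 4.28, 19.3 and 16.3 FPKM. Of the 6, 2 were called higher, against 9.29% of all genes tested. Endothelial markers, led by Fcgr2b, summed to 105.7, 97.9 and 91.3 FPKM against 118.7, 93.5 and 103.9 FPKM. Limma called 0 of 7, where 9.29% of all genes tested were called higher and 0.935% lower. Of the 7, 1 passed the adjusted p below the 2-fold limit, and 2 passed an unadjusted p under 0.05, as did 35.5% of all genes tested. Lymphocyte markers, led by Cd8a (though not in the CL group alone), summed to 2.07, 1.74 and 2.27 FPKM against 3.99, 5.48 and 2.48 FPKM. Among the 6 tested, 1 was called higher, against 9.29% of all genes tested. No marker was at 0 in all rats. The part of these cell types in the levels of the members was not tested.

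The 5 genes outside the members whose log2 level over the 6 rats was most like the members' mean were Sirpa, Clec7a, Mcam, Rab32 and Gstp1, with Pearson's r between 0.996 and 0.998. The 6 rats fell into their 2 groups on this mean, so r mostly reflects the difference between the groups, and 741 of the 10527 genes compared had an r above 0.95. Sirpa, for example, read 5.33, 5.02 and 5.95 FPKM in the CL rats, against 15.4, 15.8 and 17.3 in the FL rats.

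Promoter sequences, from 250 bases before to 50 bases after the start of a gene, were taken from RefSeq (build GRCr8), where 9 of the 10 members matched, with 10 promoters in all. No promoter of Hlf or Cry1 was in the promoter set used here. Both strands were searched for the E-box CACGTG, the variant E′-box CACGTT, the D-boxes TTACGTAA and TTATGTAA, and the ROR elements TAGGTCA and TGGGTCA, to which REV-ERB also binds. Of all 33469 promoters, 6.42% held CACGTG, 4.83% CACGTT, 0.12% TTACGTAA, 0.893% TTATGTAA, 2.63% TAGGTCA and 4.09% TGGGTCA.

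Among the members, 5 genes held a searched motif. Dbp, Per1, Per3 and Nr1d2 had a promoter in the set but held none of the motifs, and sequence outside this stretch was not searched. CACGTG was found in 4, namely Ciart, Bhlhe41, Tef and Nr1d1, and CACGTT in 2, namely Per2 and Nr1d1. Ciart held 3 copies of CACGTG, which began 93, 35 and 21 bases before the start. In Bhlhe41 the motif began 48 bases and in Tef 198 bases before the start, and in Nr1d1 it lay in 1 of its 2 promoters, 191 bases before the start. Per2 held CACGTT, beginning 62 bases before the start, together with TTATGTAA, beginning 192 bases before it. Of the opposite-phase genes, 4 of 5 matched, and 1 held a motif. This was Arntl (listed there as Bmal1), with TAGGTCA beginning 16 bases before the start. A match describes the sequence and was not tested as a binding site.

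The 250 bases before the start are shown for the member with the most E-boxes, for the member with both an E′-box and a D-box, for the E-box promoter of Nr1d1, and for Arntl, which moved the other way. Each is written 5′ to 3′ on the strand of the gene, with the motifs in capitals.
Ciart (chr2:186112247-186112496, minus strand): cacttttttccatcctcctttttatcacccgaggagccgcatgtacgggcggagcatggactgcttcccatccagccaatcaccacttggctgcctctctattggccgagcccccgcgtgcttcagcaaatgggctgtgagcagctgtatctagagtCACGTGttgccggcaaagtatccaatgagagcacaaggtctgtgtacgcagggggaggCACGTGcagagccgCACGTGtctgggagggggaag
Per2 (chr9:99496994-99497243, minus strand): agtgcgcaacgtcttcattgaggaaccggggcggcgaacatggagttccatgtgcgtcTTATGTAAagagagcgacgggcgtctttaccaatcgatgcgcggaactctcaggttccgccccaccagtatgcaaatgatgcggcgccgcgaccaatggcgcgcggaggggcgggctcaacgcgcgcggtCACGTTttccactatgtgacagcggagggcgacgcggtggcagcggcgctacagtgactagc
Nr1d1 (chr10:84229455-84229704, minus strand): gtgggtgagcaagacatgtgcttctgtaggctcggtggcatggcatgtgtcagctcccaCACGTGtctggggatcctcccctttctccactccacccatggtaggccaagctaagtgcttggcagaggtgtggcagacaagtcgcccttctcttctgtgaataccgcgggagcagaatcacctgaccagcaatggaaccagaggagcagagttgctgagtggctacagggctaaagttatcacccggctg
Arntl (chr1:176766078-176766327, plus strand): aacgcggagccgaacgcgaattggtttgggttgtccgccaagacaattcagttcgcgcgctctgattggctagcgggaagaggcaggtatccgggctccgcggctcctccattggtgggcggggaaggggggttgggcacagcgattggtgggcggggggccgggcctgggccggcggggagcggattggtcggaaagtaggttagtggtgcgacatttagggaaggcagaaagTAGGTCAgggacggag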

How the data were processed

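Livers of 3 CL and 3 FL rats were sequenced, and groups were taken from the labels. The authors aligned the reads with TopHat2 after trimming and deposited uniquely mapped reads per gene as FPKM, 1 column per rat. The genome is named there as human although the gene identifiers are those of Ensembl for rat, and no annotation release was given in the sources used here. The columns CL4 and FL4, 2 in number, belong to no sample listed in the series and were left out.

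FPKM are not counts, so limma with a mean-dependent prior was run on log2(FPKM + 0.1), with Benjamini-Hochberg adjustment over all genes tested. Every adjusted p is limma's. An exact two-sided permutation test of 3 against 3 rats cannot give a p below 0.1, so none was used. The alternatives were pseudocounts of 1 and 0.01, no filter or a mean of at least 1 FPKM, quantile normalization or median scaling, a limma prior that was robust or had no trend, no fold limit, and leaving out each rat. The procedure was first tested on simulated data.

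Genes named were the members, the opposite-phase genes, the called genes and the 3 largest changes of each other list of clock and hormone genes (at most 6), the most abundant gene of each marker list, and the 5 genes most like the members' mean (mean of at least 1 FPKM). Rora, Lpin1, Gys2 and Thra are exceptions. A gene of the opposite-phase list is not reported here and was taken out of its counts after the results were known. The members and lists were chosen with earlier results of these data known. The mapped depth of each rat is unknown, and relative to CL5 the depth of the rats was 0.656 to 1, judged from the spacing of low U6 values. Between 65.9% (FL5) and 88.2% (CL6) of these values lay near a whole step, so the depths are rough. Software was limma 3.58.1 in R 4.3.3, and pandas 2.3.3, numpy 2.4.6 and matplotlib 3.10.9 in Python 3.11.15.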

Additional observations from a re-analysis of the deposited data

How the results depend on the processing

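All 10 members kept a positive and all 5 opposite-phase genes a negative log2 fold change under each alternative in which they were tested. The number of members called higher fell from 8 to 5 with a pseudocount of 1 (Hlf, Ciart and Bhlhe41 lost), and that of opposite-phase genes called lower from 4 to 2 (Nfil3 and Cry1 lost). Leaving out 1 rat gave 7 to 8 members and 3 to 4 opposite-phase genes. Over all genes, 1381 were called higher and 139 lower. The pseudocount of 1 gave 462 and 72, quantile normalization 453 and 231, and no fold limit 2518 and 288. A mean of at least 1 FPKM left 854 called higher among fewer genes tested, and median scaling left 824. Leaving out 1 rat gave 740 (without CL7) to 1831 (without FL2) higher and 81 (without CL6 or CL7) to 160 (without FL2) lower. The median log2 difference of all genes was 0.29, 0.08 with median scaling and -0.04 with quantile normalization, and the log2 fold change of Alb turned from -0.38 to 0.49 with the latter, passing the threshold in neither. The cause of these shifts was not tested. No paired analysis was possible because the rat numbers of the groups share only the number 5. Without read counts no counting interval can be given, and levels under 0.1 FPKM, such as those of Ciart and Bhlhe41 in the CL group, are the least precise.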
